A study of Mus musculus with 12 samples.

Results

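A set of 12656 short stretches of open chromatin was listed in Sox9 High cells of the mouse intestinal epithelium and in no other sorted population. They were 15.4% of the 82365 regions obtained when the peak lists of 4 populations were merged. The members were chosen by their presence in the lists: a merged region had to hold a peak of the Sox9 High list, no peak of the other lists, and span under 500 bp. Presence and span therefore describe the members and test nothing, and the position of the members along the genome is what the rule did not use, apart from the absence of overlap.

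The populations were sorted from intestinal epithelial cells of C57Bl/6 mice by the level of a Sox9EGFP reporter. They are Sox9 High, Sox9 Low, Sox9 Sublow and Sox9 Negative, with 3 Omni-ATAC-seq libraries each (12 in all). The label of each library gives 12000 cells collected. All populations come from the same reporter strain, and the labels name no other allele or treatment, nor whether libraries came from separate animals. Each population is given as 1 list of consensus peaks on mm9 with positions only, so no value here has a replicate error and no difference between populations could be tested.

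Omni-ATAC-seq uses the Tn5 transposase, which cuts DNA where nucleosomes leave it exposed, and a peak marks a place of frequent cutting. SOX9 is a transcription factor made mainly in crypt cells of the gut. Previous studies of the reporter strain found Sox9 High cells enriched for enteroendocrine and other secretory cells, Sox9 Low cells for crypt base stem cells, Sox9 Sublow cells for transit-amplifying progenitors and Sox9 Negative cells for differentiated cells. Open sites at promoters are often shared between cell types, while many open sites away from promoters belong to one cell type or lineage. Genes and sequences under the regions were not analysed here, so the cell type name was not checked against marker genes, and "open" below means listed as a peak.

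The members made up 48.0% of the 26349 Sox9 High regions under 500 bp (exact 95% interval 47.4 to 48.6%). They were also 92.4% of the 13694 regions that the Sox9 High list held alone, which were themselves 16.6% of all merged regions. Together they covered 3.21 Mb, or 12.4% of the bases in Sox9 High peaks, and each of the 12656 held a single Sox9 High peak. The same share of short regions was 18.97% in Sox9 Low (5149 of 27147), 7.45% in Sox9 Sublow (1665 of 22336) and 29.2% in Sox9 Negative (5464 of 18711). In each list the limit is on the merged span, so a short peak inside a longer shared region is not counted here. Only shared regions drop out in this way, which raises all of these shares. By the width of the peak itself, the Sox9 High share was 47.0% at 150 to 199 bp and 18.4% at 450 to 499 bp. Over all merged regions under 500 bp, 49.7% were held by 1 list, a share on another base that counts the members themselves. Depth is unknown, and the exact intervals given here and below take each region as independent and speak for counting error alone.

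Members had a median span of 233 bp (exact interval 231 to 236 bp), with quartiles of 174 and 322 bp. The fullest 25 bp step of span was 150 to 174 bp, with 1582 members (12.5%), and 1613 members (12.7%) were under 150 bp. Regions under 500 bp held by 1 other list alone were shorter, with medians of 202 bp in Sox9 Low, 183 bp in Sox9 Sublow and 198 bp in Sox9 Negative. Only 212 members (1.68%) were under 100 bp, against 162 (3.15%), 76 (4.56%) and 84 (1.54%) of the regions of Sox9 Low, Sox9 Sublow and Sox9 Negative alone. The shortest member was 1 bp long, on chromosome 1 at position 122156256, followed by 3 bp on chromosome 8 (109677942 to 109677944) and 8 bp on chromosome 5 (90843660 to 90843667). These shortest members were picked out after their values were seen.

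At the other end, 5 members reached the longest possible span of 499 bp, among them chr2:104158909-104159407, chr4:98327212-98327710 and chr9:38535137-38535635. Just outside the limit lay regions of 500 bp at chr9:74964558-74965057 and chr13:52143309-52143808 and of 501 bp at chr3:51020044-51020544. There were 96 members of 490 to 499 bp and 80 Sox9 High regions of 500 to 509 bp held by no other list, so members and regions beyond the limit were about as frequent on either side of it.

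The share of peaks that lay in a region of 1 list alone was lower for wider peaks in each list between 150 and 499 bp. It rests on presence and span, which the rule used, and is a description. Of Sox9 High peaks of 150 to 199 bp, 47.0% lay in a region of that list alone, against 29.4% in Sox9 Low, 14.6% in Sox9 Sublow and 33.6% in Sox9 Negative. At 300 to 349 bp the shares were 32.0% in Sox9 High, 9.29% in Sox9 Low, 2.52% in Sox9 Sublow and 11.9% in Sox9 Negative. At 450 to 499 bp they were 18.4%, 3.11%, 0.230% and 3.58% in the same order of populations. Below 100 bp the order differed, with 47.2% in Sox9 High and 58.3% in Sox9 Low. Peaks under 150 bp were 5.87% of the Sox9 High list, 2.54% of the Sox9 Low list, 2.03% of the Sox9 Sublow list and 6.36% of the Sox9 Negative list, and the part that peak calling has in these shares was not tested.

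**Figure D1:**
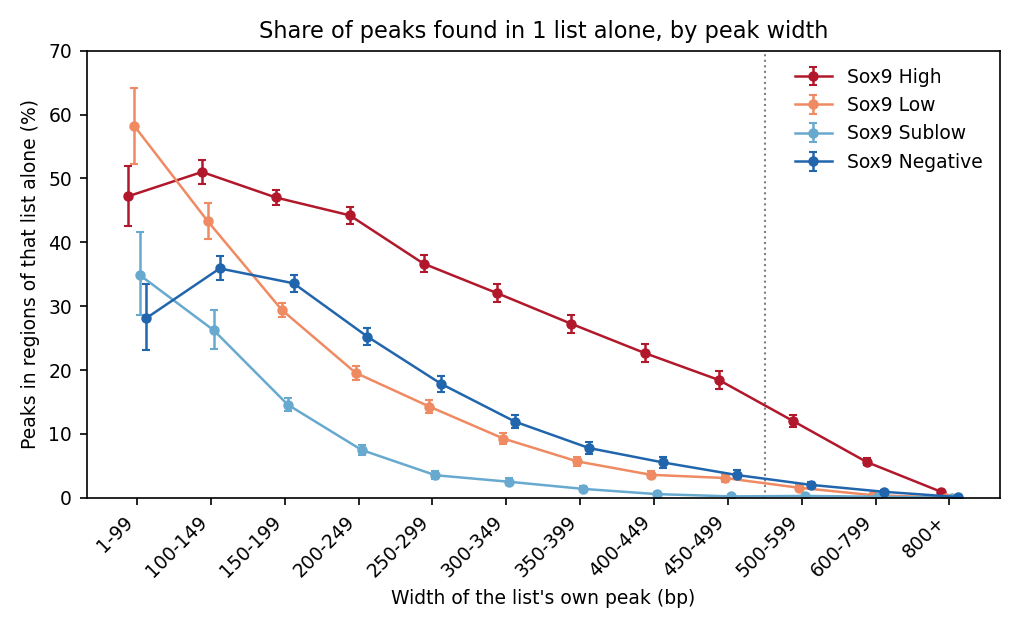
Share of the peaks of each list (y axis, percent) that lie in a merged region of that list alone, by the width of the peak in bp (x axis). Points are shares, bars are exact 95% intervals, colours are populations, and the dotted line marks 500 bp. From 100 bp upward the Sox9 High points lie above those of the other lists, for example 32.0% against 9.29%, 2.52% and 11.9% at 300 to 349 bp.

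The members lay far from the regions that all 4 populations had open. Their median distance to the nearest such region was 23.2 kb (exact interval 22.4 to 24.0 kb), against 11.7 kb (11.4 to 12.1 kb) for the 13693 Sox9 High regions under 500 bp that other lists also held. It was 16.5 kb for short regions of Sox9 Low alone, 10.7 kb for those of Sox9 Sublow alone and 8.51 kb for those of Sox9 Negative alone. Within 10 kb of a region of all 4 lists lay 29.6% of the members, against 42.6% of all merged regions, and 32.3% of the members lay more than 50 kb away, against 18.7% of all merged regions. The members' median was the larger on 19 of 19 autosomes beside short shared Sox9 High regions, beside short Sox9 Sublow regions and beside short Sox9 Negative regions. Beside short Sox9 Low regions it was larger on 18 of 19, with chromosome 11 the exception. With a reciprocal overlap of 50%, the median of the members was 17466 bp. The other classes were not recomputed under that or any other alternative, so whether the order holds there was not tested.

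Other classes of short regions placed the members next to those that Sox9 Low and Sox9 High shared with no other list. The median distance to a region of all 4 lists was 23.2 kb for the members and 21.5 kb (20.3 to 23.0 kb) for the 3650 short regions of Sox9 Low and Sox9 High, and the members were farther on only 10 of 19 autosomes. Where Sox9 Sublow was added, in 3412 short regions, the median was 13.1 kb. The 4383 short regions open in every population but Sox9 High were much closer, at 8.18 kb, near the 7.84 kb from a short region of all 4 lists to the nearest other region of all 4 lists. Wide regions of Sox9 High alone (500 bp or more, 1038 regions) had a median of 25.8 kb (23.4 to 29.97 kb), an interval that overlaps that of the members.

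**Figure D2:**
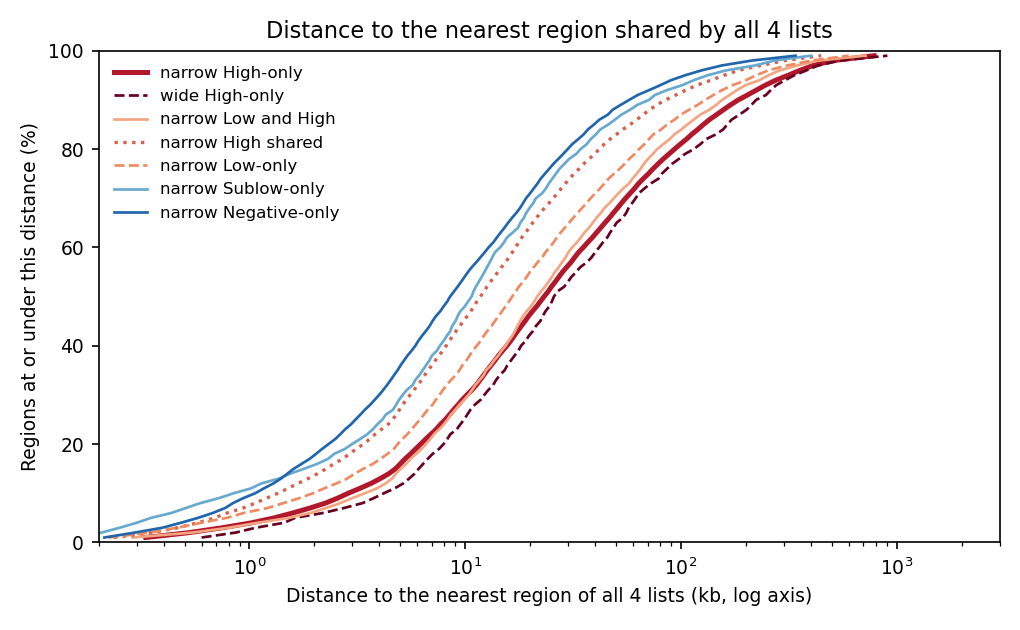
Cumulative share of regions (y axis, percent) by the distance to the nearest other region held by all 4 lists (x axis, kb, log scale). Lines are classes of region, and narrow means under 500 bp. The line of the 12656 narrow regions of Sox9 High alone runs close to that of narrow regions of Sox9 Low and Sox9 High, and to the right of the lines for Sox9 Low, Sox9 Sublow and Sox9 Negative alone.

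Set beside shared Sox9 High peaks of the same width, the members lay farther by an amount that varied with the lists sharing those peaks. For members of 150 to 199 bp the median distance was 21.7 kb, against 10.8 kb where any other list shared the region. It was 13.2 kb there with regions of all 4 lists left out and 20.4 kb (17.7 to 25.5 kb) where Sox9 Low alone shared it. For members of 400 to 499 bp it was 25.1 kb (22.8 to 27.8 kb), against 12.1 kb, 19.6 kb (17.8 to 21.5 kb) and 24.4 kb (20.3 to 28.1 kb) for the same 3 groups. The intervals of members and of peaks shared with Sox9 Low alone overlapped in each width class compared, with the members' median the larger in each. Regions of Sox9 Low alone came close to the members only from 300 bp upward, with 26.2 kb for members and 23.0 kb for Sox9 Low at 300 to 399 bp, where the exact intervals (24.4 to 28.0 kb and 19.1 to 25.5 kb) overlap. At 150 to 199 bp they did not overlap, at 21.7 kb (19.9 to 23.8 kb) for members and 13.5 kb (12.4 to 15.3 kb) for Sox9 Low. Regions of Sox9 Negative alone stayed between 8.25 and 9.54 kb over these widths.

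The nearest region that any other list held lay a median of 8.39 kb from a member (8.08 to 8.65 kb). By list, the median distance to the nearest peak was 9.57 kb for the Sox9 Low list, 12.4 kb for the Sox9 Sublow list and 16.5 kb for the Sox9 Negative list. Wide regions of Sox9 High alone had the same order of lists, at 11.5, 14.9 and 19.6 kb. These lists hold 58356, 52113 and 45461 peaks, so list length runs in the same order and its part was not tested. Some members were alone by a narrow margin: 480 of them (3.79%) had a Sox9 Low peak within 500 bp and 43 had one within 100 bp. The smallest gaps were 2 bp, from chr2:30626978-30627175 to a region of the other 3 lists and from chr4:116713180-116713401 to a region of Sox9 Low alone. Next came a gap of 5 bp beside chr2:30752982-30753080, again to a region of Sox9 Low alone. For such members, an absent peak and a shifted peak edge cannot be told apart.

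The nearest region to a member was often another region of Sox9 High alone. This held for 28.6% of the members (27.8 to 29.4%), against 16.1% of short shared Sox9 High regions and 16.0% of all merged regions. The shares were 14.2% for short regions of Sox9 Low alone, 10.7% for Sox9 Sublow and 9.59% for Sox9 Negative. A region of all 4 lists was the nearest for 25.5% of the members, against 32.5% of all merged regions. Other classes came close: 32.0% of wide regions of Sox9 High alone (29.2 to 34.9%) and 24.6% of short regions of Sox9 Low and Sox9 High (23.2 to 26.0%) were next to a region of Sox9 High alone.

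**Figure D3:**
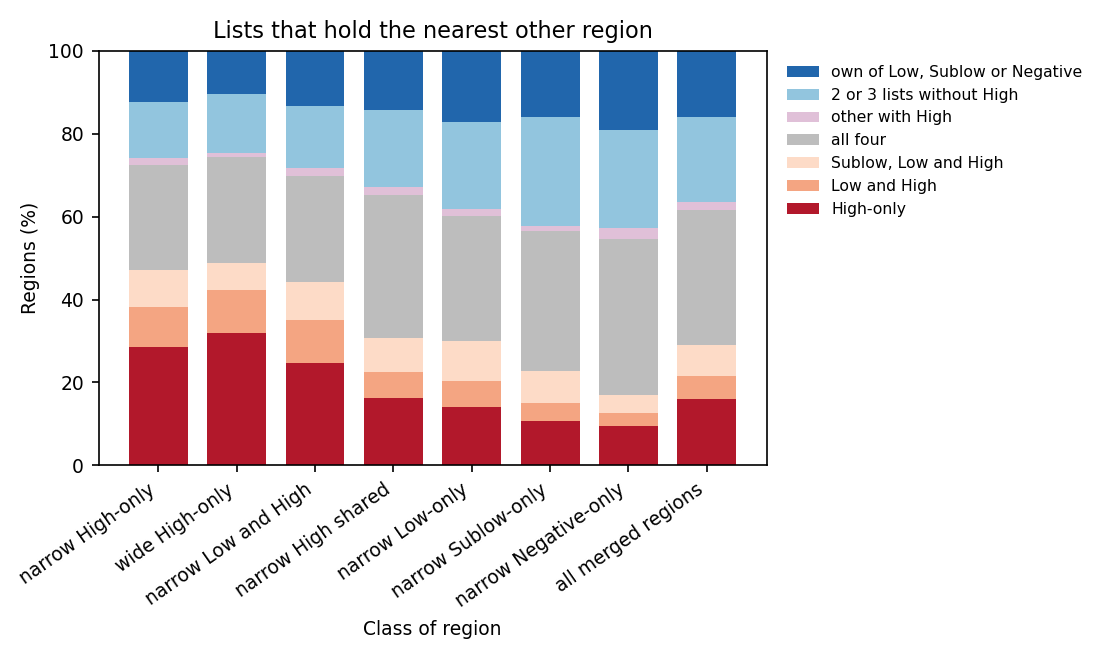
Make-up of the nearest other region (y axis, percent of regions) for each class of region (x axis). Colours show which lists hold that nearest region. Regions of Sox9 High alone are the nearest for 28.6% of the narrow regions of Sox9 High alone and for 16.0% of all merged regions.

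Members lay near one another about as often as wide regions of Sox9 High alone, or short regions of Sox9 Low and Sox9 High, lay near a member. Another member lay within 10 kb of 23.7% of them (22.9 to 24.4%), while 18.3% of all merged regions had a member that near. The share was 22.6% (20.1 to 25.3%) for the wide regions and 22.4% (21.1 to 23.8%) for those of Sox9 Low and Sox9 High. A wide region of Sox9 High alone lay within 10 kb of 2.15% of the members, against 1.45% of all merged regions, and the median distance to the nearest wide one was 558 kb. That share was 4.06% with a reciprocal overlap of 50% and 10.5% with the limit between narrow and wide at 300 bp. No other region of any list lay within 50 kb of 834 members (6.59%), against 3.24% of all merged regions. It was 5.49% (4.19 to 7.06%) for wide regions of Sox9 High alone and 5.18% for short regions of Sox9 Low and Sox9 High. Read along the chromosome, 5313 members (42.0%) stood beside another member with no other region between them, and 95 unbroken runs held 5 members or more. Short regions of Sox9 Negative alone, 6.63% of all regions where members are 15.4%, had 2 such runs, and Sox9 Low and Sox9 Sublow had 0. A more frequent class forms longer runs, and no expected number was computed.

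The longest run, picked out after the values were seen, held 14 members over 327 kb of chromosome 12, from 118044026 to 118370721. Its members spanned 157 to 486 bp with a median of 308.5 bp, and its flanks on both sides were regions of Sox9 Low and Sox9 High. On the same chromosome, the 100 kb window from 117800001 to 117900000 held 15 regions, of which 9 were members and 2 were shared by Sox9 Low and Sox9 High, while none held a Sox9 Negative peak. The megabase from 118000001 to 119000000 on that chromosome held 25 members among 66 regions and 8 regions of all 4 lists.

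Among 100 kb windows on a fixed grid, 7928 of the 15363 with any region (51.6%) held a member, and 1082 held at least 3. Chromosome 6 from 54000001 to 54100000 led with 10 members of 144 to 471 bp among 19 regions. Chromosome 10 from 117300001 to 117400000 had 9 members of 152 to 484 bp among 11 regions, and none of the 11 was held by all 4 lists. On chromosome 18, 9 of 15 regions from 82700001 to 82800000 were members and 1 was a wide region of Sox9 High alone. On chromosome 13 they were 8 of 13 regions from 54400001 to 54500000. The 2 richest megabases besides that of chromosome 12 were on chromosome 4, with 27 members among 144 regions from 148000001 to 149000000 and 25 among 127 from 138000001 to 139000000. Those held 49 and 39 regions of all 4 lists, against 8 in the megabase of chromosome 12. They also held 46 and 42 regions without a Sox9 High peak, against 21 there. Windows were ranked by their number of members and not by the share of members, which was 15.4% over all merged regions.

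**Figure D4:**
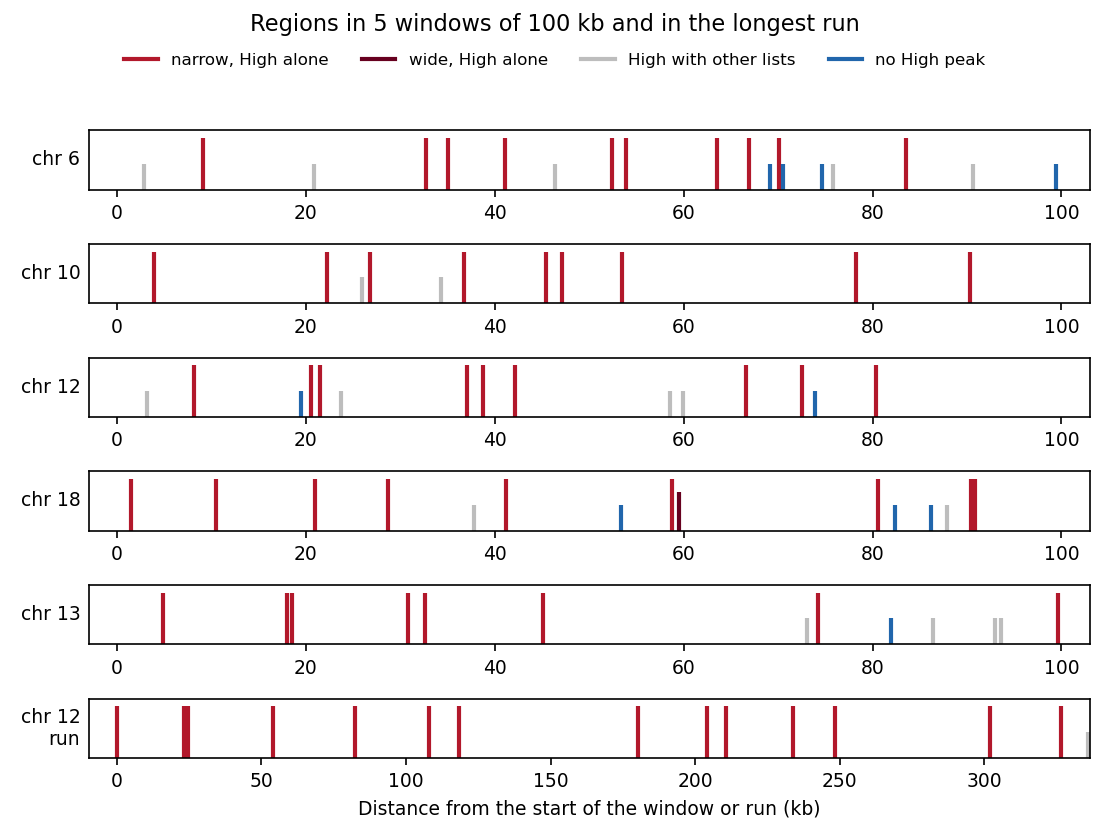
Regions in the 5 windows of 100 kb with the most members and in the longest run of 14 members on chromosome 12, by distance in kb from the start of the window or run (x axis). Each line is 1 merged region. Tall red lines are narrow regions of Sox9 High alone, and shorter lines are wide regions of Sox9 High alone (dark red), regions shared with Sox9 High (grey) and regions without a Sox9 High peak (blue).

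The chains with the most members, with gaps under 10 kb and no other region inside, were 3 chains of 5 members. The shortest of these covered 11.8 kb of chromosome 4 and consisted of chr4:150543949-150544277, chr4:150546577-150546986, chr4:150553199-150553375, chr4:150554634-150554727 and chr4:150555471-150555736, with spans of 329, 410, 177, 94 and 266 bp. A second covered 19.6 kb of chromosome 2 from 30967060 to 30986648, with members of 171 to 356 bp and a region of Sox9 Low and Sox9 High 1402 bp beyond its end. The third covered 25.6 kb of chromosome 15 from 27454894 to 27480487, with members of 129 to 417 bp. Chains of 2 or more members numbered 1134 and held 2438 members, while 10218 members (80.7%) were in none. Of these chains, 989 held 2 members, 123 held 3 and 19 held 4. The smaller classes of short regions of Sox9 Low, Sox9 Sublow and Sox9 Negative alone formed 240, 24 and 383 chains, with 498, 48 and 798 regions.

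Members also reached into parts of the genome with no other peak. On chromosome 5, chr5:58108580-58108691 (112 bp) had no region of any list within 1.98 Mb, and the nearest one, chr5:56126425-56126632 (208 bp), was a member too. That member was in turn 1.63 Mb from the next region, the member chr5:54497132-54497274. On chromosome 3, chr3:46582228-46582519 (292 bp) was 1.40 Mb from the nearest region, one of Sox9 Sublow, Sox9 Low and Sox9 High. Of the 15363 windows of 100 kb with any region, 1164 held members only, and 1594 members (12.6%) lay in them. No like share was computed for another class, so this one cannot be called particular to the members. Windows without a region of all 4 lists, which may hold other regions, had 4204 members (33.2%). Of the 55071 merged regions not held by all 4 lists, 23.3% lay in such windows. The share was 36.7% (33.8 to 39.7%) for wide regions of Sox9 High alone and 29.9% (28.4 to 31.4%) for short regions of Sox9 Low and Sox9 High.

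Over 2317 windows of 1 Mb with any region, the number of members was compared with the number of other regions. Spearman's rho was 0.71 with regions of all 4 lists, 0.68 with regions of Sox9 Low and Sox9 High and 0.67 with regions lacking a Sox9 High peak, and it was 0.37 with the far fewer wide regions of Sox9 High alone. These are descriptions across windows of 1 set of lists, and windows are not replicates.

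Density along the chromosomes ranged from 3.62 members per Mb on chromosome 3 to 6.92 on chromosome 11 among autosomes, and was 1.43 on the X chromosome, which was not corrected for copy number. The density of all regions varied too: members were 14.1%, 14.5% and 14.8% of the merged regions on chromosomes 3, 11 and X, against 15.4% of all merged regions. The Y chromosome held 3 members. As a share of Sox9 High regions under 500 bp, members ranged from 41.6% on chromosome 7 (exact interval 39.1 to 44.1%) to 54.3% on chromosome 13 (51.5 to 57.2%), around 48.0% overall. The intervals of these chromosomes excluded 48.0%, as did those of chromosomes 11, 17 and 19, at 45.6%, 44.4% and 44.2%. No allowance was made for the number of chromosomes, and the 48.0% includes the regions of each of them. The X chromosome share was 52.3% (47.6 to 57.0%), an interval that includes the overall value.

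**Figure D5:**
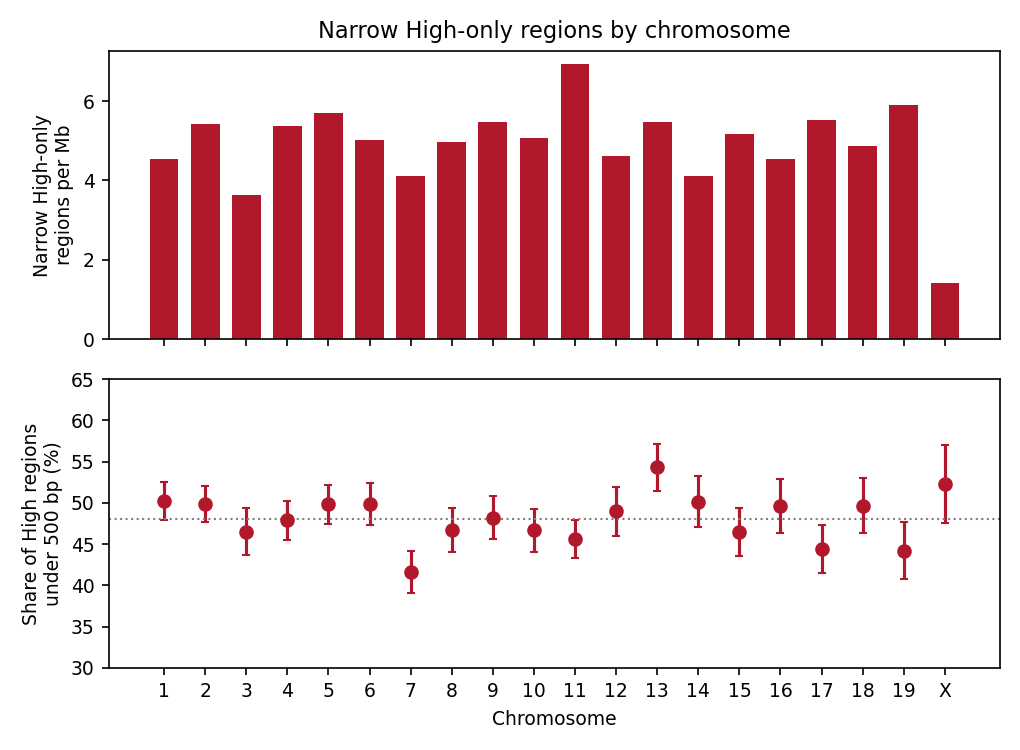
Narrow regions of Sox9 High alone by chromosome (x axis). The upper panel gives their number per Mb up to the last peak of the chromosome, and the lower panel their share of the Sox9 High regions under 500 bp in percent, with exact 95% intervals and a dotted line at the overall 48.0%. Chromosome 7 is lowest at 41.6% and chromosome 13 highest at 54.3%.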

How the data were processed

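Omni-ATAC-seq libraries of 4 sorted populations were analysed as 1 list of consensus peaks per population. Per the submitters' processing notes, the build was mm9 and the tools were MACS2 2.1.2, Bowtie2 2.3.4, Trim Galore 0.4.3, deepTools 2.5.2 and Picard 2.10.3. Their roles, the handling of the Tn5 offset and how libraries were combined are not given in the sources used here. As deposited, the lists hold positions and names, with no score, count or depth. Every list held a peak whose start equals its end, so positions were read as counted from 1 with the end included. An mm9 genome and annotation were not used here. At face value only 6.27% of GRCm38 promoter windows overlapped a merged region, so the GRCm38 tables were not used to place regions.

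Peaks overlapping by 1 bp or touching were merged. Distances are bases between region edges. Intervals are exact 95% intervals, Clopper-Pearson for shares and from binomial order statistics for medians. The code was checked on simulated data. Named regions follow a fixed rule: the windows and chains with the most members, the most isolated members, the smallest gaps and the spans at the limit. The parts of the rule on genes and sequences could not be applied. The members and the rule were chosen with earlier results of these data known. Alternatives were other overlap, joining, span, width and list length settings and autosomes only. Values were computed in Python 3.11.15 with scipy 1.17.1, pandas 2.3.3 and numpy 2.4.6, and drawn with matplotlib 3.10.9.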

Additional observations from a re-analysis of the deposited data

How the results depend on the processing

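No paired analysis was possible because the lists carry no values of single libraries, which also means that no library could be left out. Alternatives on genes, base composition and motifs need mm9 sequence or annotation and were not run. The distance to regions of all 4 lists and the nearest-region share were put through the same alternatives after the data were seen. The classes set beside the members were not. Of 72 values under the other 8 alternatives, 37 stayed within 1.5-fold (the number of members) or inside the interval of the reported value, and 35 did not. The reported values are 12656 members, 48.0% of short Sox9 High regions, a median span of 233 bp, a median of 8386 bp to a region of another list, 23.7% within 10 kb of another member, 2.15% within 10 kb of a wide region, 6.59% alone within 50 kb, a median of 23184 bp to a region of all 4 lists and 28.6% nearest to a region of Sox9 High alone. Joining peaks up to 100 bp apart, peaks of at least 100 bp and autosomes only moved none of the 9. Keeping the widest 45461 Sox9 High peaks, as many as the shortest list holds, gave 8340 members, 44.5%, 289 bp, 8775.5 bp, 16.5% near a member, 7.99% alone, 25844.5 bp to regions of all 4 lists and 22.9% nearest to Sox9 High alone. A reciprocal overlap of 50% gave 46.5%, 228 bp, 4918 bp, 28.7%, 4.06% near a wide region, 5.16% alone, 17466 bp to regions of all 4 lists and 24.6% nearest. A span under 300 bp gave 69.5%, 194.5 bp, 7825 bp, 17.2%, 10.5%, 22008 bp and 27.6%, and wide then begins at 300 bp. That limit is on the merged span, so shared regions with a short Sox9 High peak can fall out of the base of the 69.5%. By the width of the peak itself, the share was between 36.7% and 51.0% in the width classes under 300 bp. Peaks of at least 200 bp gave 51.7%, 295 bp, 9709.5 bp, 18.2%, 2.47%, 8.28%, 26832.5 bp and 26.1%. Joining peaks up to 500 bp apart gave 9245 bp, 20.7%, 7.12% alone and 24677 bp to regions of all 4 lists. Lists without short peaks hold fewer neighbours by construction, and the cause of the other moves was not tested. Depth is unknown, so a region missing from a list may be closed or missed.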
